A study of Rattus norvegicus with 4 samples.

Results

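The genes described here serve the endoplasmic reticulum, the compartment in which secreted and membrane proteins are threaded through a membrane channel, folded and given their first sugars. They were chosen as 41 listed symbols. The count tables held 40 of them among 16881 gene symbols, and Derl2 was not analysed here. Ern1 had no count in any library, so 39 members could be tested. Rat neural stem/progenitor cells (NSPCs) of WT genotype were cultured on a PUCL platform or on PUCL@CNT1, a platform from a series on electroconductive PUCL@CNT scaffolds. All cells first spent 24 h in a medium that maintains stemness, knockout DMEM/F12 with StemPro neural supplement, and some were harvested then. The others went on for another 1.5 d in B-27 Plus neuronal medium, which induces neural differentiation. The 4 groups were PUCL in maintenance medium, PUCL@CNT1 in maintenance medium, PUCL in differentiation medium and PUCL@CNT1 in differentiation medium, with 1 library each. Counts below are given in that order. Medium and time in culture changed together and cannot be told apart. In these bulk samples, fewer cells of a type and less RNA per cell cannot be told apart either.

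Nascent proteins enter the compartment through the Sec61 channel, and Sec62, Sec63 and the translocon-associated Ssr proteins assist it. The oligosaccharyltransferase attaches N-glycans as the chain emerges, BiP (Hspa5) and other chaperones hold it, and disulfide isomerases join its cysteines. When unfolded protein accumulates, the sensors Ern1 (IRE1), Eif2ak3 (PERK) and Atf6 start the unfolded protein response, in which Atf6 and spliced Xbp1 raise chaperone genes through short promoter elements. Misfolded chains are passed back to the cytosol by a complex built around Sel1l, Syvn1, Herpud1 and the derlins.

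Those promoter elements were found in a minority of the promoters searched. The list was chosen by function and holds chaperone genes of that response, so a higher share than in all promoters is no independent result. RefSeq promoters (GRCr8, 250 bases before to 50 after the start) were available for 33 of the 40 members found. The endoplasmic reticulum stress element (ERSE, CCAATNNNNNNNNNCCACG, either strand) was in 7 of the 33 (21.2%) and in 22 of all 33469 promoters (0.0657%). The shorter ERSE-II (ATTGGNCCACG) was in 3 of the 33 (9.09%) and in 17 of all promoters (0.0508%). A core element read by Xbp1 (UPRE core, TGACGTGG) was in 1 of the 33, Hyou1, and in 199 of all promoters (0.595%). These are matches of letters, not measured binding. They need not mark every member that the textbook response acts on, and some members, Manf among them, had no promoter to search. The matched sites are shown with the fixed letters in capitals and each site read 5′ to 3′ on the strand that matches.
Hspa5, bases -43 to -25 from the start: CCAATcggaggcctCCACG
Hsp90b1, upstream site, bases -176 to -158: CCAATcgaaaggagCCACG
Hsp90b1, downstream site, bases -72 to -54: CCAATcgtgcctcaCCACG
Calr, bases -232 to -214: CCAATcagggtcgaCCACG
Canx, bases -230 to -212: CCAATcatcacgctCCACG
Creld2, bases -145 to -127: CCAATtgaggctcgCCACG
Dnajc3, bases -133 to -115: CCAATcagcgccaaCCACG
Xbp1, bases -65 to -47: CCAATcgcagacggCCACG
Dnajb11 (ERSE-II), bases -10 to 1: ATTGGcCCACG
Herpud1 (ERSE-II), bases -124 to -114: ATTGGgCCACG
Hyou1 (ERSE-II), upstream site, bases -188 to -178: ATTGGcCCACG
Hyou1 (ERSE-II), downstream site, bases -88 to -78: ATTGGgCCACG

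**Figure D1:**
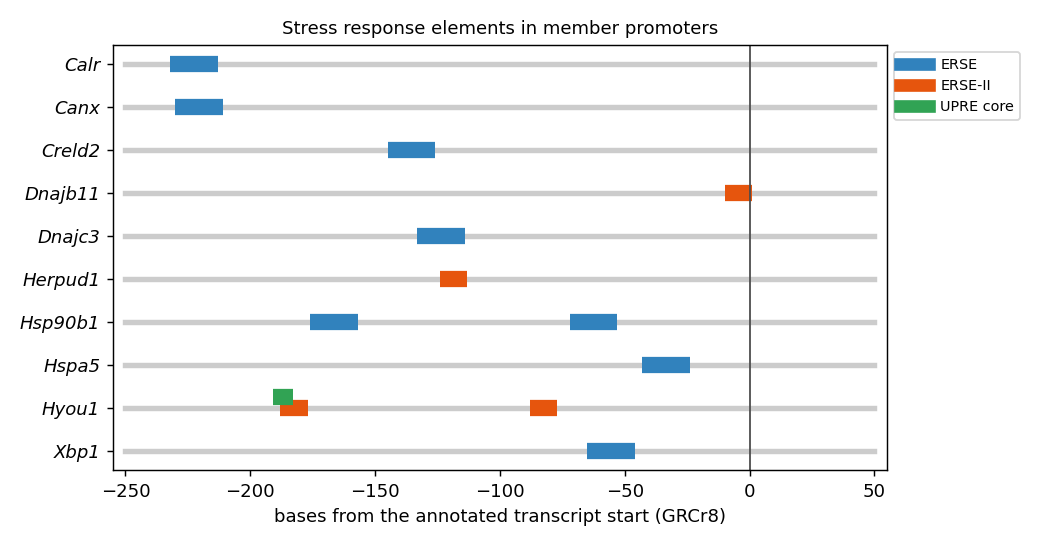
Map of the matched elements in the RefSeq promoters of the 10 members that hold one; the horizontal axis is the distance in bases from the annotated transcript start and each box is a match. Hsp90b1 and Hyou1 hold more than 1 box, and in Hyou1 the UPRE core overlaps the upstream ERSE-II.

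The promoters of Hspa5 and Hyou1 are shown whole, as the chaperone with the most counts and the only member with more than 1 kind of element. Capitals mark the elements. In Hyou1 the UPRE core overlaps the upstream ERSE-II, so they form 1 run of capitals, and both ERSE-II sites lie on the opposite strand.
Hspa5, GRCr8 chr3:38452766-38453065, plus strand: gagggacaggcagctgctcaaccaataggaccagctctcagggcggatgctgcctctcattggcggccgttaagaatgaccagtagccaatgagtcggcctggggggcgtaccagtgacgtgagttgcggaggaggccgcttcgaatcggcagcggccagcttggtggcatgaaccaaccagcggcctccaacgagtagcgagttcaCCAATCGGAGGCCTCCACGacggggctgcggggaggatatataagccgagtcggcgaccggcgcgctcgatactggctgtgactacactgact
Hyou1, GRCr8 chr8:53602632-53602931, plus strand: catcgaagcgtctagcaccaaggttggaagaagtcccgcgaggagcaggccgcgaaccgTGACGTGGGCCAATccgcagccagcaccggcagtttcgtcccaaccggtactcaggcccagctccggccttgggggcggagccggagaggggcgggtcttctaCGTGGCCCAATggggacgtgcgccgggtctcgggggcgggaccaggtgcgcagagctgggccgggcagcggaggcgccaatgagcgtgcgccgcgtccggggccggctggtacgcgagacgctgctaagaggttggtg

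The libraries held 6035848 to 6855984 counts, of which ribosomal RNA entries took 8.46 to 13.4%. The members took 0.913 to 0.993% of each library. Members were well covered, with a median of 4256 counts summed over the 4 libraries against 601 for all 10516 genes tested, and 34 of the 39 lay above that median. Of 10 fixed neural stem/progenitor markers, 9 had counts, and Msi1 was at 0 throughout. Their summed level, in CPM (counts divided by TMM-scaled library size), was 6984, 7259, 8884 and 11108. Single markers did not all follow the sum. The log2 medium ratio was above 0 for 9 of 9 on PUCL, and for 7 with 2 below on PUCL@CNT1. Between platforms, 3 lay higher on PUCL@CNT1 and 6 lower in maintenance medium. In differentiation medium 5 lay higher and 4 lower, the lowest at a log2 ratio of -3.70. Summed neuron markers were 349, 253, 168 and 158 CPM. Of these 8 markers, 7 had log2 medium ratios below 0 and 1 above on PUCL, and 6 below and 2 above on PUCL@CNT1. Summed astrocyte markers were 105, 88.5, 616 and 114 CPM. The astrocyte sums rest on few genes, since 2, 2, 3 and 1 of the 5 markers had counts. Oligodendrocyte-lineage markers summed to 863, 746, 1383 and 1370 CPM, and mural cell and fibroblast markers to 1329, 928, 644 and 566 CPM. Acta2 made most of the mural sum, with 6920, 4664, 3223 and 2279 counts, and 3 of 5 tested mural markers had log2 medium ratios above 0 on PUCL@CNT1. Of 6 microglial markers, 5 were at 0 in every library, as were the endothelial genes Pecam1, Cdh5 and Tek. The part of these shifts in the members' results was not tested.

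Read together, the members differed little between media. After the switch to differentiation medium their median log2 ratio was 0.17 on PUCL and 0.21 on PUCL@CNT1, against -0.01 and 0.03 over all genes tested. The ratio lay above 0 on both platforms for 21 of the 39 and below 0 on both for 9, so 76.9% had the same sign, against 53.9% of all genes. The 53.9% is a share of all 10516 genes, of which 10071 had a ratio on PUCL and 10057 on PUCL@CNT1. Members also carried more counts than most genes, and the part of depth in this gap was not tested. The summed level of all members was 9045, 8821, 10103 and 9883 CPM. It was 1.12 times as high in differentiation medium on each platform, while the sum of all tested genes was 1.03 and 1.07 times as high under the same scaling. In the edgeR quasi-likelihood test, which fits medium and platform as separate additive effects over the 4 libraries, calls were made at an adjusted p of 0.05. It called 2 members higher in differentiation medium, Sec61b and Dad1, beside 1.8% of all genes. It called 1 member lower, Pdia5, beside 1.02% of all genes. As shares of the 39 members both counts were above those of all genes, though they are few. At an unadjusted p under 0.05 edgeR had 7 of the 39 members for medium, beside 12.1% of all genes.

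With 1 library per group, single pairs of libraries were read by size and not tested. A pair was counted when its scaled ratio was at least 2-fold and the nearer bound of its 95% Clopper-Pearson interval, which covers counting error only, lay beyond 1.5-fold. On PUCL, 3 members were higher by that rule in differentiation medium (Dnajb9, Dolk and Eif2ak3), beside 16.1% of all genes. On PUCL, 2 were lower (Pdia4 and Pdia5), beside 15.3% of all genes. On PUCL@CNT1, 2 were higher (Manf and Sec61b), beside 16.5% of all genes, and 2 were lower (Pdia5 and Atf6), beside 14.5%. On both platforms, 0 members were higher, beside 4.35% of all genes, and 1 was lower, Pdia5, beside 3.53%. As shares of the 39 members, each of these counts was below that of all genes, and 30 members passed in no pair of either kind. Members carried more counts than most genes.

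**Figure D2:**
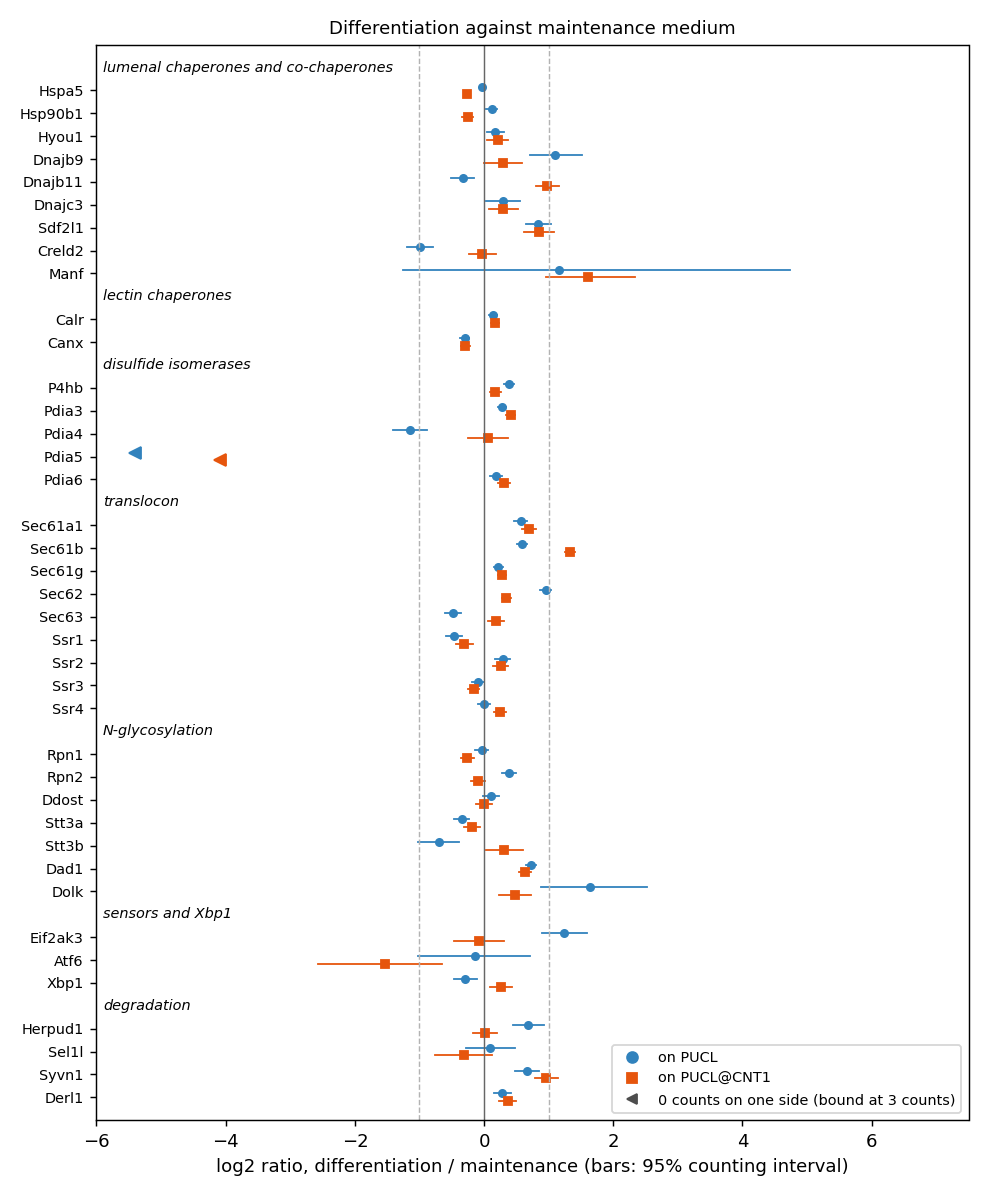
Log2 ratio of differentiation over maintenance medium for each member, grouped by role, on PUCL and on PUCL@CNT1, with 95% intervals of counting error. Most members lie near 0; Sec61b, Dad1 and Sec62 lie above 0 on both platforms, and Pdia5, with no count in differentiation medium, lies below.

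Among the lumenal chaperones, Hspa5 held the most counts of any member and was nearly level. It had 10421, 10976, 10031 and 9773 counts, a ratio of 0.982 (95% interval 0.955 to 1.01) on PUCL and 0.837 (0.814 to 0.86) on PUCL@CNT1. Without Hspa5 the summed lumenal chaperones were 1.06 and 1.09 times as high in differentiation medium. The 4 Hspa5 counts lay close together, with the lowest in PUCL@CNT1 in differentiation medium. In edgeR its fitted log2 difference between media was -0.14 (adjusted p = 0.896). Hsp90b1, the Hsp90 of this compartment, had 2078, 2411, 2214 and 2150 counts, also within a narrow range. Hyou1, an exchange factor for Hspa5, had 926, 578, 1024 and 713 counts, lower on PUCL@CNT1 than on PUCL in both media.

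Co-chaperones of Hspa5 varied more. Dnajb9 had 79, 172, 167 and 224 counts, lowest in PUCL in maintenance medium, and its medium ratio was 2.16 (1.64 to 2.86) on PUCL and 1.22 on PUCL@CNT1. Dnajb11 had 585, 390, 457 and 819 counts, so the log2 medium ratio was -0.33 on PUCL but 0.98 on the other platform. Dnajc3, which also restrains the kinase PERK, had 234, 279, 281 and 365 counts, and its log2 ratios were 0.29 and 0.30. Sdf2l1, a partner of the Dnajb proteins, had 335, 234, 588 and 448 counts, with log2 ratios of 0.84 and 0.85. Both Sdf2l1 counts in differentiation medium lay above both in maintenance medium, but its adjusted p in edgeR was 0.323. Creld2, a stress-induced lumenal protein, had 629, 394, 310 and 412 counts and a ratio of 0.503 on PUCL, just outside the 2-fold limit.

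Manf, a secreted and lumenal factor induced by reticulum stress, was nearly absent on PUCL. Its counts were 2, 25, 5 and 82, so both libraries on PUCL@CNT1 lay above both on PUCL. Differentiation medium held 3.08 times (1.95 to 5.04) the maintenance level on PUCL@CNT1. On PUCL the ratio was 2.55, with an interval from 0.417 to 26.8 that the 2 and 5 counts leave wide.

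The lectin chaperones hold glycosylated chains while they fold. Calr had 4147, 3305, 4471 and 3958 counts, with log2 medium ratios of 0.14 and 0.17. Canx, its membrane-bound relative, had 4368, 3581, 3472 and 3122 counts, with log2 ratios of -0.30 and -0.29. The pair thus lay on opposite sides of 0 on both platforms, and neither passed the size rule or the edgeR test.

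Of the 5 disulfide isomerases, edgeR called 1 for medium, Pdia5, which fell. It had 129 and 48 counts in maintenance medium and 0 in both libraries in differentiation medium. With 0 counts set at 3 per library, its level in differentiation medium was 42.2-fold lower for PUCL and 17-fold lower for PUCL@CNT1. These ratios leave out the counting error of the 129 and 48 counts. Its adjusted p in edgeR was 0.0473, close to the 0.05 threshold, and 5 of 12 other settings passed. The call was lost without PUCL in maintenance medium (fitted log2 -8.64) and without PUCL@CNT1 in maintenance medium (fitted log2 -10.01). Fits without a library also left platform out of the model. Pdia5 overlaps other genes in the RefSeq table, and the counting strand was not given in the sources used here.

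The other isomerases had no edgeR call. Pdia4 had 384, 164, 170 and 182 counts, so only PUCL in maintenance medium stood above the rest; it was 2.21-fold lower in differentiation medium on PUCL, and its log2 ratio on PUCL@CNT1 was 0.06. Pdia3, the isomerase that works with Calr and Canx, had 4217, 2889, 5025 and 4097 counts. P4hb, the founding isomerase of the family, had 2242, 1988, 2881 and 2384, and Pdia6 had 1950, 1576, 2174 and 2081. In these last genes each differentiation library lay above the maintenance library of its own platform, with log2 ratios from 0.17 to 0.41.

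The translocon held the member with the smallest adjusted p for medium, Sec61b, though Pdia5, Manf and Dolk had larger fitted differences. Sec61b, the small beta subunit of the channel, had 2531, 2043, 3729 and 5469 counts. Both libraries in differentiation medium lay above both in maintenance medium. The ratio was 1.5 (1.43 to 1.58) on PUCL and 2.52 (2.39 to 2.65) on PUCL@CNT1. In edgeR, Sec61b rose (fitted log2 difference 0.96, SE 0.199, adjusted p = 0.00103), and 9 of 12 other settings passed. It lost the call without PUCL in maintenance medium (fitted log2 1.10), without PUCL@CNT1 in maintenance medium (0.87) or without PUCL@CNT1 in differentiation medium (0.69). Those fits also left platform out of the model. Without either maintenance library most medium calls over all genes were lost too. With 1 library left out, 1 group of the medium comparison holds a single library, which is assumed to vary like the others.

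The other channel subunits had smaller ratios than Sec61b on PUCL@CNT1. Sec61a1, the pore itself, had 1268, 1029, 1840 and 1769 counts, with log2 ratios of 0.57 and 0.69 (adjusted p = 0.177 in edgeR). Sec61g, the gamma subunit, had 3725, 3430, 4261 and 4417 counts, with log2 ratios of 0.22 and 0.28. All 3 subunits were thus above 0 on both platforms, and only Sec61b passed the test. Sec62, which serves short and late-entering chains, had 1773, 2603, 3362 and 3519 counts. Its fitted log2 difference was 0.65 (SE 0.205, adjusted p = 0.067 in edgeR), short of the threshold. Sec63, the membrane partner that recruits Hspa5, had 1374, 913, 963 and 1104 counts, with log2 ratios of -0.48 and 0.18.

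The Ssr genes, whose products sit beside the channel, were not called. Ssr1 had 1156, 1019, 821 and 875 counts, lower in differentiation medium on each platform. Ssr2 had 1146, 1125, 1372 and 1431, higher on each. Ssr3 had 2140, 2049, 1965 and 1949, and Ssr4 had 1682, 1916, 1650 and 2418. The summed translocon level was 2547, 2582, 3088 and 3452 CPM, a ratio of 1.21 on PUCL and 1.34 on PUCL@CNT1. Without Sec61b the ratios were 1.16 and 1.17.

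In the N-glycosylation group, Dad1, a small subunit of the oligosaccharyltransferase, rose. Its counts were 2335, 1785, 3780 and 2947, both differentiation libraries above both maintenance libraries. The ratio was 1.65 (1.57 to 1.74) on PUCL and 1.55 (1.46 to 1.65) on PUCL@CNT1. In edgeR the fitted log2 difference was 0.68 (SE 0.203, adjusted p = 0.0463), and 2 of 12 other settings passed. Without each library in turn, in the order of the groups, the fitted log2 difference was 0.85, 0.54, 0.47 and 0.87. The call was lost each time. Those fits also left platform out of the model, and leaving out platform alone gave an adjusted p of 0.209 in edgeR.

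The other subunits of that enzyme had no edgeR call. Rpn1 had 1666, 1786, 1593 and 1586 counts, Rpn2 had 1270, 1421, 1630 and 1413, and Ddost had 1043, 1024, 1099 and 1090. Of the catalytic subunits, Stt3a had 1337, 1102, 1032 and 1034 counts. Stt3b, the catalytic subunit of the alternative complex, had 231, 182, 139 and 241, and its log2 medium ratio was -0.70 on PUCL but 0.31 on the other platform. Dolk, the kinase that makes the lipid carrier of the glycan, had 18, 226, 56 and 335 counts. Its medium ratio was 3.17 (1.84 to 5.74) on PUCL and 1.39 (1.17 to 1.66) on PUCL@CNT1.

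**Figure D3:**
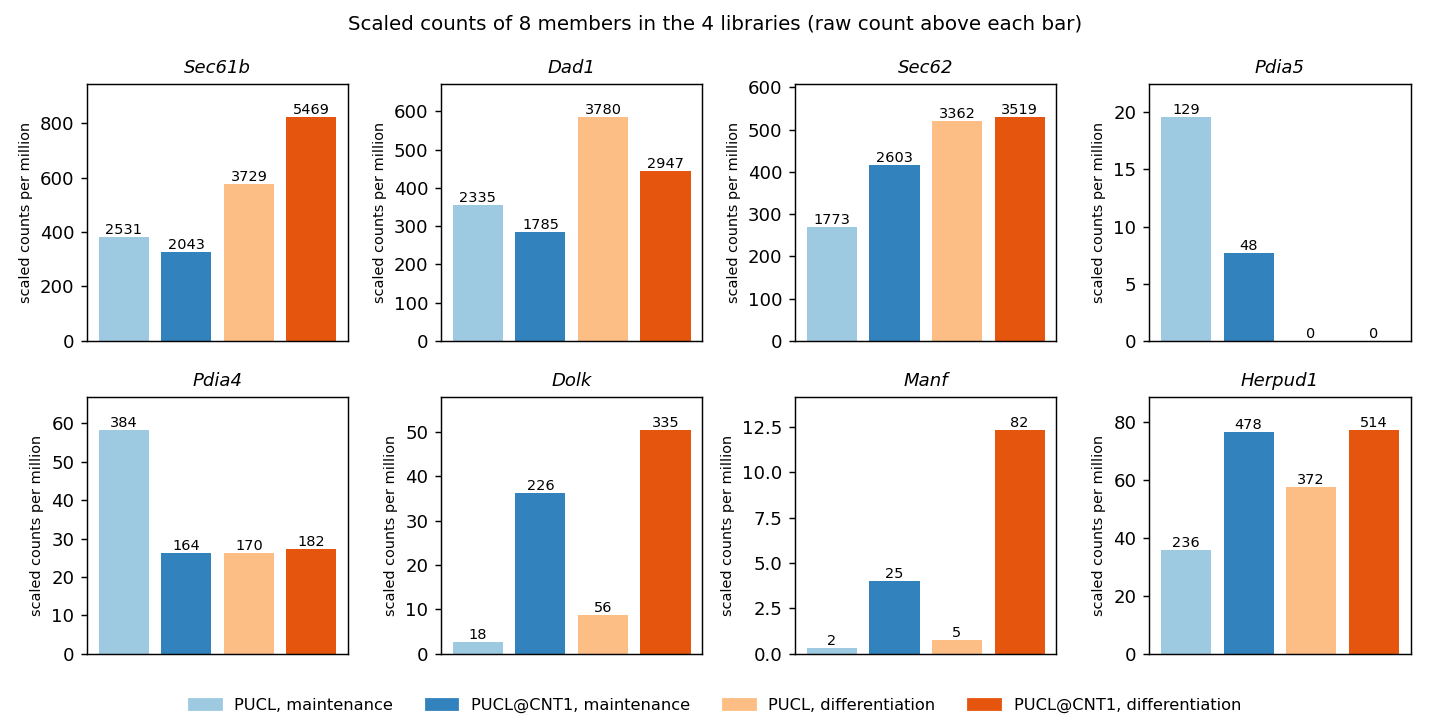
Bars give the scaled level (CPM) of 8 members in each of the 4 libraries, on linear axes that start at 0, with the raw count above each bar. Sec61b and Dad1 are higher in both differentiation libraries, Dolk and Manf are higher in both libraries on PUCL@CNT1, and Pdia5 is at 0 counts in both differentiation libraries.

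The stress sensors were sparse. Ern1 was at 0 in all 4 libraries, where 3 counts would correspond to 0.451 to 0.48 CPM, so a lower level was not detectable. Eif2ak3, which slows translation under stress, had 98, 115, 227 and 116 counts, with PUCL in differentiation medium alone at the top. Its medium ratio was 2.36 (1.86 to 3.03) on PUCL, and its log2 ratio on PUCL@CNT1 was -0.08. Atf6, the sensor that is cleaved into a transcription factor, had 26, 39, 23 and 14 counts and was 2.96-fold lower in differentiation medium on PUCL@CNT1, from few counts. Xbp1, whose mRNA is spliced by Ern1, had 557, 503, 447 and 639 counts. Splicing is not read by 3′-end counts.

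Of the 4 degradation genes, 0 passed edgeR or the size rule for medium. Over all genes edgeR called 1.8% higher and 1.02% lower. The size rule counted 16.1% as higher and 15.3% as lower on PUCL, and 16.5% and 14.5% on PUCL@CNT1. All 4 degradation genes had log2 ratios above 0 on PUCL and 3 of 4 on PUCL@CNT1, where that of Sel1l was -0.31. Syvn1, the ubiquitin ligase of the complex, had 398, 382, 616 and 793 counts, with log2 ratios of 0.66 and 0.96 (adjusted p = 0.253 in edgeR). Its partner Sel1l had 119, 97, 125 and 83. Herpud1, a stress-induced scaffold of the complex, had 236, 478, 372 and 514 counts, lowest in PUCL in maintenance medium. Derl1, a channel component, had 796, 829, 950 and 1136. The summed level of the 4 genes was 235, 286, 319 and 380 CPM, a medium ratio of 1.36 on PUCL and 1.33 on PUCL@CNT1.

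**Figure D4:**
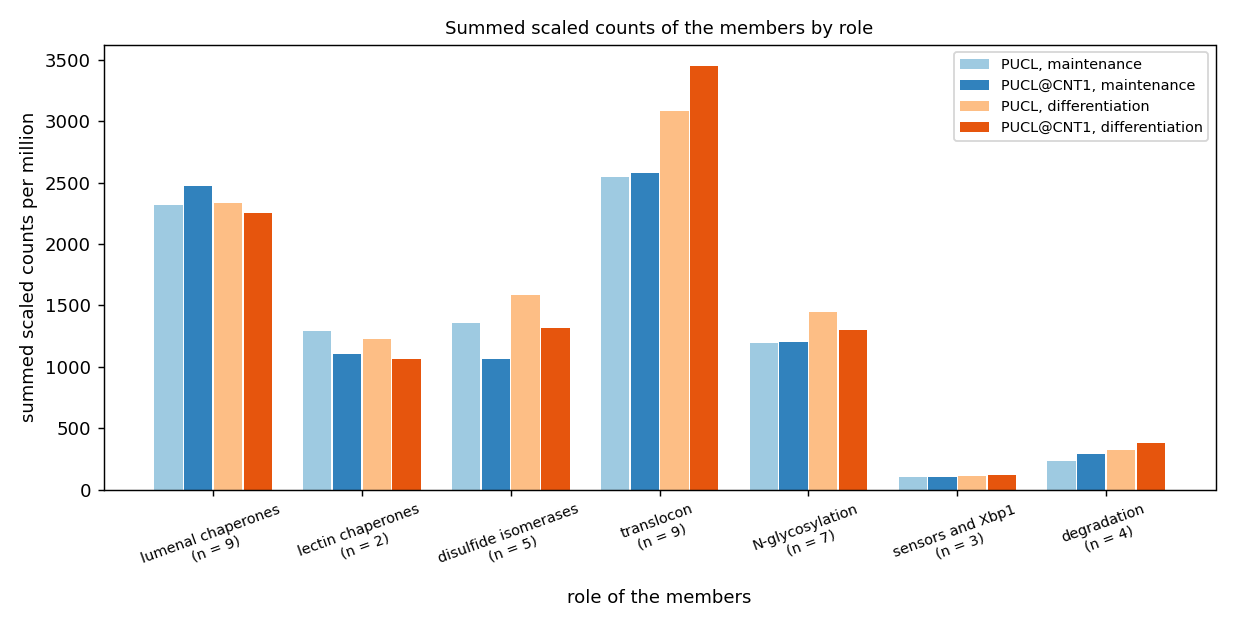
Summed CPM of the members of each role in the 4 libraries. Translocon, disulfide isomerase, N-glycosylation and degradation sums are higher in differentiation medium on both platforms. Lectin chaperone sums are lower, with Canx lower and Calr higher. The lumenal chaperone sum, most of it Hspa5, stays between 2254 and 2475 CPM. The sum of sensors and Xbp1, most of it Xbp1, has medium ratios whose intervals include 1. These are 1.04 (0.938 to 1.16) on PUCL and 1.1 (0.99 to 1.22) on PUCL@CNT1.

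The members with stress elements in their promoters had medium ratios centred near 0. The 10 with an ERSE or ERSE-II had median log2 ratios of 0.05 on PUCL (range -0.99 to 0.68) and 0.09 on PUCL@CNT1 (range -0.29 to 0.98), and 0 passed the size rule on either platform. The 23 without had medians of 0.22 and 0.18, and 5 and 2 passed. Over all genes 16.1% passed as higher and 15.3% as lower on PUCL, and 16.5% and 14.5% on PUCL@CNT1, so neither group of members stood above the background. These are descriptions over few genes, without a test, and the groups were not compared. The split by matched letters does not part targets of the stress response from other genes. Between platforms, the maintenance libraries gave 1 of the 10 past the size rule, Herpud1, and 4 of the 23 without. The differentiation libraries gave 0 and 2. By that rule 12.2% of all genes were higher and 13.9% lower on PUCL@CNT1 in the maintenance libraries. For the differentiation libraries these shares were 15.2% and 15.6%.

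The platforms differed for few members. The median log2 ratio of PUCL@CNT1 over PUCL was -0.07 in maintenance and -0.01 in differentiation medium, against -0.01 and 0.02 over all genes. Of the 39 members, 10 were above 0 in both media and 11 below in both, so 53.8% had the same sign, against 48.9% of all genes. Both shares keep genes without a count in either library of a pair, and members carried more counts than most genes. The edgeR test called 1 member higher on PUCL@CNT1, Dolk, beside 0.209% of all genes. It called 0 members lower, beside 0.247% of all genes. At an unadjusted p under 0.05 edgeR had 2 of the 39 members for platform in either direction, beside 6.95% of all genes. By the size rule in maintenance medium, 4 members were higher on PUCL@CNT1 (Dnajb9, Manf, Dolk and Herpud1), beside 12.2% of all genes, and 2 were lower (Pdia4 and Pdia5), beside 13.9%. In differentiation medium 2 were higher (Manf and Dolk), beside 15.2%, and 1 was lower (Eif2ak3), beside 15.6%. In both media, 2 were higher, Dolk and Manf, beside 2.52% of all genes, and 0 were lower, beside 3.17%.

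Dolk and Manf were the members that passed the size rule in both media. Dolk, with 18 and 56 counts on PUCL against 226 and 335 on PUCL@CNT1, was 13.3 times (8.2 to 22.8) as high on PUCL@CNT1 in maintenance medium and 5.82 times (4.37 to 7.87) as high in differentiation medium. Its fitted log2 difference in edgeR was 3.10 (SE 0.686, adjusted p = 0.0102), and 4 of 11 other settings passed. Without each library in turn, in the order of the groups, the fitted log2 difference was 2.32, 3.14, 3.99 and 2.67. The call was lost each time. Those fits also left medium out of the model, and leaving out medium alone gave an adjusted p of 0.285 in edgeR. The adjusted p in limma-voom was 0.3. In the RefSeq table Dolk lies within 2 kb of Nup188, which was not analysed here. Manf was 13.2 times (3.29 to 115) and 15.9 times (6.56 to 50.4) as high on PUCL@CNT1 in the 2 media. Its fitted log2 difference was 3.81 with an SE of 2.78, and the edgeR adjusted p was 0.984.

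Herpud1 was 2.14 times (1.83 to 2.51) as high on PUCL@CNT1 in maintenance medium and 1.34 times as high in differentiation medium. Dnajb9 followed the same pattern, with 2.3 times (1.75 to 3.04) and 1.3 times. In the other direction, Hyou1 stood at 0.659 times (0.593 to 0.732) its PUCL level in maintenance medium and 0.677 times (0.615 to 0.746) in differentiation medium (adjusted p = 0.725 in edgeR). Pdia3 had log2 ratios of -0.47 and -0.33 (adjusted p = 0.633). Pdia4 was 2.22-fold lower and Pdia5 2.55-fold lower on PUCL@CNT1 in maintenance medium. The summed disulfide isomerase level was 1353, 1067, 1585 and 1315 CPM, which is 0.789 and 0.83 times the PUCL level in the 2 media.

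**Figure D5:**
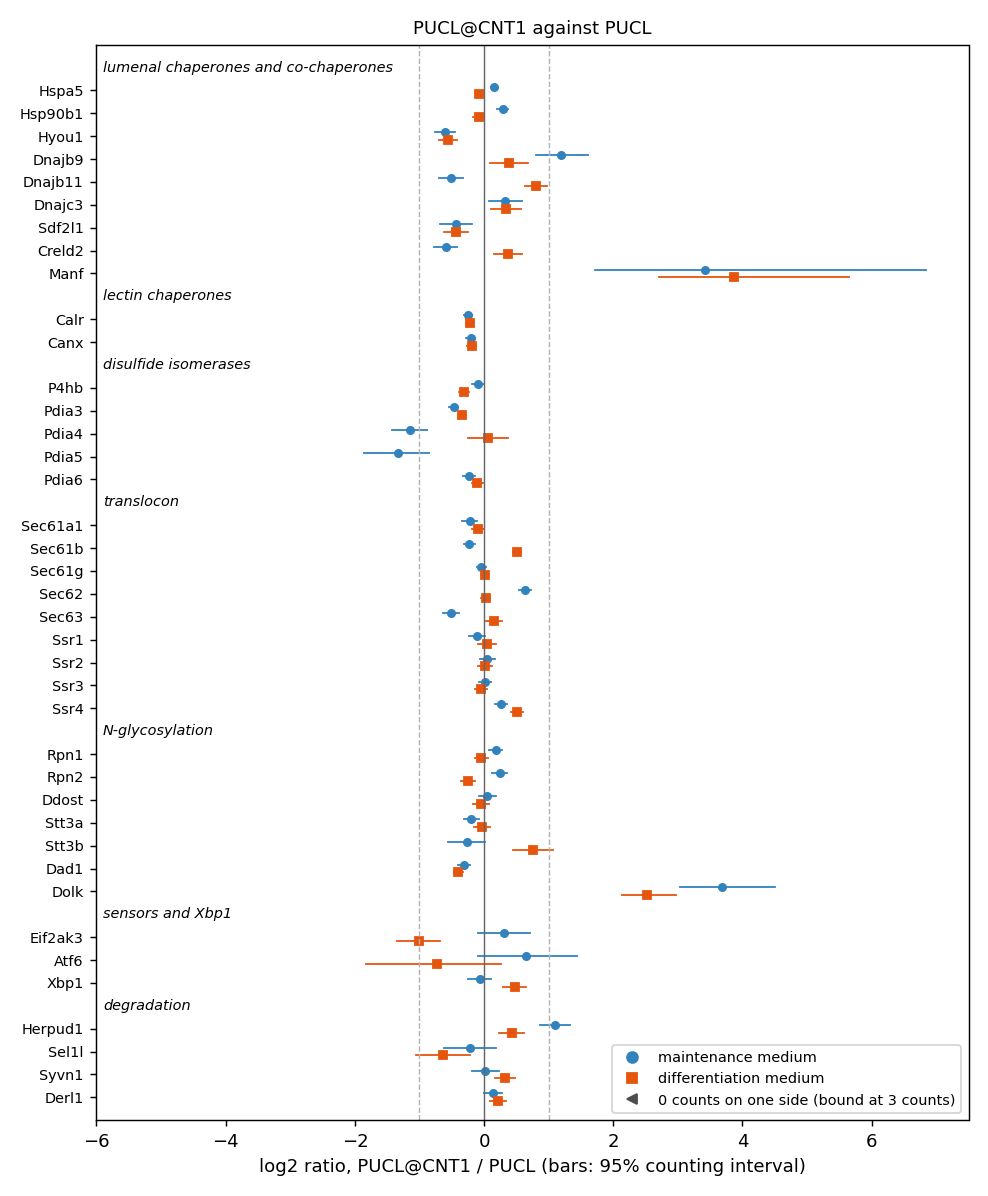
Log2 ratio of PUCL@CNT1 over PUCL for each member, grouped by role, in maintenance and in differentiation medium, with 95% intervals of counting error. Dolk and Manf lie far above 0 in both media; most others lie near 0.

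The platform ratio itself was compared between media, as a description from 1 library per group. It was higher in differentiation medium by the size rule for 3 members (Dnajb11, Pdia4 and Stt3b), beside 15.4% of all genes, and lower for 1, Eif2ak3, beside 14.1%. For Pdia4 the log2 change was 1.20 (0.804 to 1.6). Eif2ak3 was 2.01-fold lower on PUCL@CNT1 in differentiation medium, after a log2 ratio of 0.31 in maintenance medium, a change of -1.31 (-1.82 to -0.81).

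Other genes of the compartment, in lists that hold no member, gave 2 medium calls in edgeR. Over all genes edgeR called 1.8% higher and 1.02% lower in differentiation medium. Of 30 other lumenal folding enzymes tested, 1 rose and 0 fell. This was Serpinh1, the collagen chaperone Hsp47, with 7063, 6940, 11676 and 12678 counts and a fitted log2 of 0.77 (SE 0.154, adjusted p = 0.000622; 8 of 12 other settings passed). The call was lost without PUCL in maintenance medium (fitted log2 0.74), PUCL@CNT1 in maintenance medium (0.79) or PUCL@CNT1 in differentiation medium (0.72). Those fits also left platform out of the model. Of 34 early secretory transport genes, 1 rose and 0 fell. This was Preb, the exchange factor that starts COPII vesicle budding, with 906, 686, 2460 and 1046 counts and a fitted log2 of 1.00 (SE 0.26, adjusted p = 0.0147; 7 of 12 other settings passed). Preb was highest in PUCL in differentiation medium, and its edgeR call was lost without that library (fitted log2 0.35). It was also lost without PUCL in maintenance medium (1.29) or PUCL@CNT1 in maintenance medium (0.97), again with platform left out of the model.

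In the other 4 lists edgeR called 0 genes for medium, beside 1.8% of all genes called higher and 1.02% lower. Among 32 signal recognition and membrane insertion genes the smallest p belonged to Sec11c, a signal peptidase subunit, with 973, 971, 1637 and 1789 counts (adjusted p = 0.065). Among 31 other N-glycan genes it was Krtcap2, an oligosaccharyltransferase subunit, with 1151, 1010, 1860 and 1628 (adjusted p = 0.149). Among 28 other degradation genes it was Vimp, with 1094, 1261, 1774 and 2199 (adjusted p = 0.0851). Among 23 other stress genes it was Atf4, the transcription factor translated under PERK signalling, with 2475, 3705, 1475 and 2571 counts (fitted log2 -0.67, adjusted p = 0.0559). At an unadjusted p under 0.05 for medium edgeR had 3, 1, 2 and 3 genes in these lists, beside 12.1% of all genes. By the same measure it had 8 of the 30 other lumenal folding enzymes and 3 of the 34 transport genes. Of those lumenal enzymes, 15 had log2 ratios above 0 on both platforms and 0 below on both. Thus 50% had the same sign, against 53.9% of all genes, with genes that lacked a ratio kept in both shares. Among all 10516 genes, 2862 were above 0 on both platforms and 2808 below on both. For the platform, 0 genes passed in any of the 6 lists, beside 0.209% of all genes called higher and 0.247% lower. The smallest adjusted p for platform in edgeR was that of Atf4, 0.110. Atf4 passed in 2 of 12 other settings for platform and in 3 of 12 for medium. In edgeR the lists had 1, 2, 0, 1, 1 and 2 genes at an unadjusted p under 0.05 for platform, beside 6.95% of all genes, in the order of lumenal enzymes, signal recognition, N-glycan, degradation, stress and transport.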

How the data were processed

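The 4 libraries of rat NSPC RNA were 1 per combination of platform and medium. The authors deposited whole-number counts for each gene symbol, not normalized. Per the labels' protocols, RNA was extracted with Trizol and 500 ng went into a QuantSeq 3′ kit, so a count does not scale with transcript length. The submitters' processing notes name rn6, bedtools and Bowtie2; versions, annotation and strand setting are not given in the sources used here. Of the 40 members found, all matched a RefSeq symbol (GRCr8, used for names, neighbours and promoters only, not for coordinates of the counts), and 13 overlap another gene there.

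Rows of a symbol were summed. Genes with at least 10 counts in 1 library (10516) were tested in R 4.3.3 with edgeR 4.0.16 (TMM scaling, quasi-likelihood F test, platform and medium as additive terms, Benjamini-Hochberg adjustment over all genes, threshold 0.05). The fit leaves 1 residual degree of freedom, so p-values rest on spread shared across genes, and nothing says how far separate cultures vary. The script was tested on simulated data, which says nothing about that variation. Log2 ratios of pairs used a prior count of 0.5. Reads carry no molecular identifiers, so intervals and floors cover counting error only. Alternatives were other scalings and filters, leaving out rRNA entries or a model term, limma-voom (limma 3.58.1) and DESeq2 1.42.0, and other size limits. Each library was also left out in turn, and those fits left out the other model term as well.

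Described singly were members past edgeR, past the size rule in both pairs, with 0 counts, or among the 6 most abundant; from other lists, up to 3 called genes or the one with the smallest p. Further members were named by role. Members and lists were chosen with earlier results of these data known.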

Additional observations from a re-analysis of the deposited data

Results flagged for a closer look

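Dnajb11, a co-chaperone of Hspa5, had a medium ratio below 0 on the log2 scale on PUCL (-0.33) and above 0 on PUCL@CNT1 (0.98). The log2 change of its platform ratio between media was 1.31 (95% interval of counting error 1.06 to 1.55). Stt3b, a catalytic subunit of the oligosaccharyltransferase, had a log2 medium ratio of -0.70 on PUCL but 0.31 on the other platform, and the change of its platform ratio was 1.02 (0.606 to 1.43). Both were singled out because their medium ratios had opposite directions on the platforms with both counting intervals excluding a ratio of 1, and the change passed the size rule. Pdia4 and Eif2ak3 also passed it with opposite signs (log2 changes 1.20 and -1.31), but their intervals on PUCL@CNT1 included a ratio of 1. The difference was not tested, since 1 library per group leaves no replicate for it. By the size rule, 15.4% of all genes had a higher platform ratio in differentiation medium and 14.1% a lower one. How many of all genes also had opposite directions on the platforms was not counted.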

How the results depend on the processing

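No paired analysis was possible because each group held 1 library and the labels gave no replicate numbers. For medium, edgeR called 3 members. Total counts, RLE size factors, no filter and a minimum of 50 counts gave 1 each. Over all genes there were 296 medium calls, and 261, 238, 246 and 138 in those settings. Fewer members were called when any 1 library was left out. Without either maintenance library most medium calls over all genes were lost too. For platform, edgeR called 1 member, and a minimum of 50 counts, the other term left out, limma-voom and DESeq2 gave 0 each. DESeq2 gave the called gene, Dolk, no adjusted p and so could not have called it. Over all genes there were 48 platform calls, and 10, 0, 87 and 36 in those settings. Leaving out any 1 library lost the call of Dolk and lowered the number of platform calls over all genes. Among all genes called for medium, 63.9% were higher in differentiation medium, against 53.3% with total counts. The size rule with a 1.5-fold ratio and any bound above 1 counted 13 members in place of 5 for medium on PUCL, 9 in place of 4 on PUCL@CNT1, 6 in place of 3 for platform in differentiation medium, and 12 in place of 4 for the change of platform ratio. With the bound itself beyond 2-fold, 1, 2 and 2 members passed for medium on PUCL, medium on PUCL@CNT1 and platform in maintenance medium. The shares of all genes at these other size limits were not computed. These counts therefore do not show whether members passed more or less often than other genes. The fitted platform difference changed sign for Hspa5 (-0.0914 without PUCL@CNT1 in maintenance medium, to 0.176 at the highest), Sec61b (-0.0047 without PUCL in maintenance medium, -0.55 without PUCL@CNT1 in differentiation medium, to 0.776 at the highest) and Sec61g (0.12 without PUCL@CNT1 in maintenance medium, 0.11 without PUCL in differentiation medium, from -0.147 at the lowest); none of these was called. The cause was not tested. Medians of the members stayed between 0.13 and 0.19 and between 0.12 and 0.21 for medium on the 2 platforms. Depth limits Manf, Atf6, Ern1 and Pdia5 most.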
